A study of Homo sapiens with 3 samples.

Results

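The muscle miRNAs described here are hsa-miR-1-3p, hsa-miR-206, hsa-miR-133a-3p and hsa-miR-133b, 4 of the 1149 mature miRNAs measured. They were chosen by name as the products of the bicistronic muscle loci, from levels already seen in all 3 libraries, so their values are a description and carry no test. The cells were CAL-27, a human tongue squamous carcinoma line in long use, and each group had 1 small RNA library. RR came from radioresistant clones given X-rays at 2 Gy a day in 2 cycles of 5 days, with 2 weeks of recovery after each cycle, from which single-cell clones were then isolated. Mock is described in the design text as parallel clones exposed once to 2 Gy, despite its name, and CC came from untreated control clones of the same parental line. The treatment tag that names the dose stands on RR and the tag that names irradiation alone stands on Mock. Whether tags and titles belong together could not be checked, so RR and Mock could be swapped. Each direction below therefore refers to the library that carries the label. How many clones went into a library is not stated.

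In vertebrates, miR-1 and miR-133a are cut from shared primary transcripts at a pair of loci active in heart and skeletal muscle, and miR-206 and miR-133b come from a further locus active in skeletal muscle. Myogenic factors such as MYOD, MEF2 and SRF drive these loci. miR-1 and miR-206 repress HDAC4 and so favour myoblast differentiation, while miR-133 represses SRF and is linked to myoblast proliferation in mouse cells.

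The mature sequences are shown with the seed, bases 2 to 8, in capitals, because the 4 members fall into a pair of seed groups and differ outside the seed. They are RefSeq sequences for GRCh38.p14, written 5′ to 3′. All 4 members were matched, and each equals the sequence in the deposited table.
miR-1-3p: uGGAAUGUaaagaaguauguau
miR-206: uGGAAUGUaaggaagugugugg
miR-133a-3p: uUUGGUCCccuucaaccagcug
miR-133b: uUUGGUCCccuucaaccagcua

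miR-1-3p and miR-206 share a seed and differ at 4 positions, A11G, A17G, A21G and U22G, where the base of miR-1-3p comes first and positions count from the 5′ end. miR-133a-3p and miR-133b share the other seed and differ at 1 position, G22A, the last base. No further listed miRNA carried either seed. Beyond its seed partner, each member's nearest sequence had 6 mismatches when aligned over at least 18 bases, so only the miR-133 pair lay within 2 mismatches. No source used here says how reads ending before the last base were assigned within that pair, and the split of reads between miR-133a-3p and miR-133b is uncertain.

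The hairpins at both miR-1 loci are shown because their mature products are identical, with the mature arms in capitals. On chromosome 20, MIR1-1 lies at chr20:62554306-62554376 and MIR133A2 at chr20:62564912-62565013, both on the plus strand. On chromosome 18, MIR1-2 lies at chr18:21829004-21829088 and MIR133A1 at chr18:21825698-21825785, both on the minus strand.
MIR1-1: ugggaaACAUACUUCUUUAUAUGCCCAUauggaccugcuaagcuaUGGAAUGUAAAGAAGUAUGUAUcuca
MIR133A2: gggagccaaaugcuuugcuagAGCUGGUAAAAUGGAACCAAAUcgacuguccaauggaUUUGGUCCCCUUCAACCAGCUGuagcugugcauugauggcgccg
MIR1-2: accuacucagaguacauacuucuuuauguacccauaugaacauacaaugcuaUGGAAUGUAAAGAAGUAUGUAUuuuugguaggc
MIR133A1: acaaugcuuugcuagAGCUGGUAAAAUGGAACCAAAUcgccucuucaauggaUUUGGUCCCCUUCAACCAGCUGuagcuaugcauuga

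Reads of miR-1-3p and miR-133a-3p therefore cannot be assigned to a chromosome from the mature sequence. In GENCODE 29, the mature miR-1-3p of MIR1-1 lies in an intron and miR-133a-3p of MIR133A2 in an exon of the host gene MIR1-1HG on the same strand. The chromosome 18 pair lies in exons of MIR133A1HG on the same strand and in an intron of MIB1, a ubiquitin ligase gene, on the opposite strand. The mature miR-206 is at chr6:52144401-52144422 and miR-133b at chr6:52148988-52149009, both on the plus strand, and miR-133b lies opposite an intron of the lincRNA gene LINCMD1. Between the mature sequences of partners lie 10597 bases on chromosome 20, 3281 on chromosome 18 and 4565 on chromosome 6.

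Levels are reads per 1000000 reads of a library total (rpm), and the total behind that scale was 10473400 reads in RR, 10632785 in Mock and 10769990 in CC. The 3 libraries held 2147869, 2462835 and 1750776 reads of listed miRNAs in RR, Mock and CC. A count of 3 reads, used as the floor, equalled 0.286 rpm for RR, 0.282 rpm for Mock and 0.279 rpm for CC. Intervals are exact 95% Poisson intervals, or exact Clopper-Pearson limits for a ratio, and cover counting error only, since reads without molecular identifiers are not independent molecules. With 1 library per group no difference has a replicate check, no p-value is given, and a ratio's interval speaks of these libraries and not of the conditions. In bulk libraries such as these, fewer cells making a miRNA and less of it per cell cannot be told apart.

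The cells carried miR-1-3p at a moderately high level, a low level of miR-206, and only a handful of reads of either miR-133. This order held in all 3 libraries. miR-1-3p gave 98.9% of the reads of the 4 members in RR, 92.3% in Mock and 99.2% in CC. Together the members made up 0.199% of the miRNA reads in RR, 0.149% in Mock and 0.210% in CC.

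**Figure D1:**
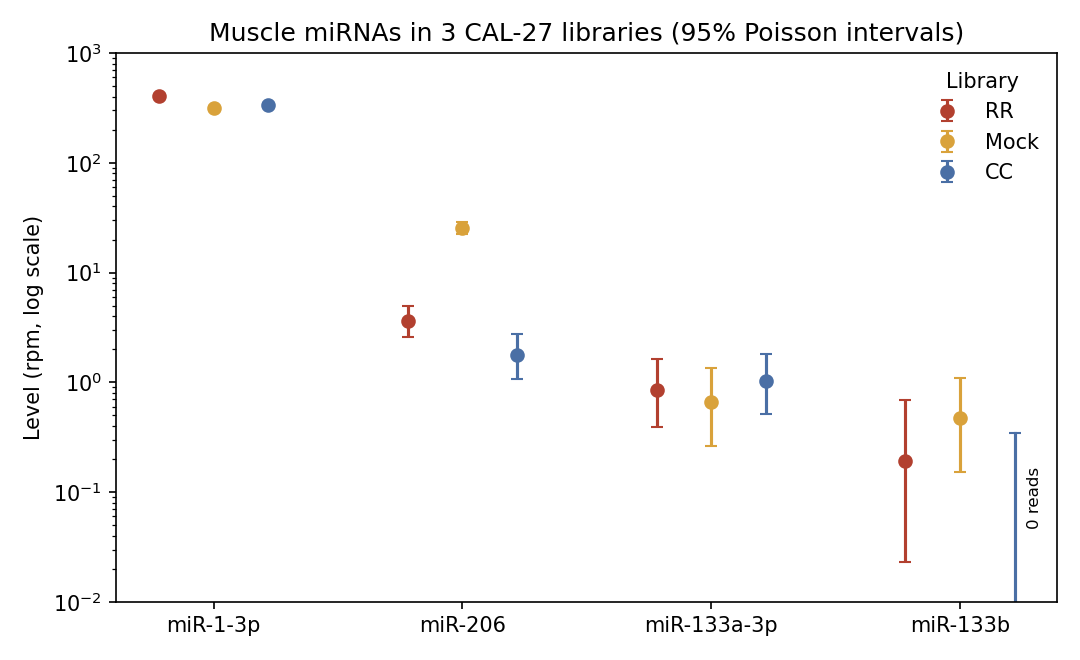
Level of each muscle miRNA in rpm (vertical axis, log scale) in the RR, Mock and CC libraries, with exact 95% Poisson intervals as bars (smaller than the point for miR-1-3p). miR-1-3p sat between 319 and 404 rpm in all libraries, while miR-206 was at 3.63 rpm in RR, 25.5 rpm in Mock and 1.76 rpm in CC; the bar without a point is miR-133b in CC, with 0 reads.

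miR-1-3p, the muscle miRNA that represses HDAC4, reached 404 rpm in the RR library (95% interval 392 to 416), 319 rpm in the Mock library (308 to 330) and 338 rpm in the CC library (327 to 349). These values rest on 4231, 3388 and 3643 reads in RR, Mock and CC. It ranked 54th of 1149 miRNAs in RR, 59th in Mock and 52nd in CC, which places it among the more abundant miRNAs of this epithelial line. The RR interval lay above the other 2, and those of Mock and CC overlapped. The interval of the ratio Mock over CC nonetheless lay just below equal levels, at 0.899 to 0.987.

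miR-206, which in mouse is needed for the repair of nerve-muscle contacts, had 3.63 rpm in RR (interval 2.57 to 4.98), 25.5 rpm in Mock (interval 22.5 to 28.7) and 1.76 rpm in CC (interval 1.06 to 2.75). The reads behind these levels were 38 in RR, 271 in Mock and 19 in CC. Mock was far above both other libraries, whose intervals overlapped each other. The interval of their ratio, RR over CC, nonetheless lay above equal levels, at 1.16 to 3.78. miR-206 ranked 286th of 1149 in RR, 147th in Mock and 324th in CC.

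miR-133a-3p, the partner of miR-1-3p, had 9 reads in RR, 7 in Mock and 11 in CC. Its level was 0.859 rpm in RR (0.393 to 1.63), 0.658 rpm in Mock (0.265 to 1.36) and 1.02 rpm in CC (0.510 to 1.83). The 3 intervals overlapped. The other arm of the same hairpins, miR-133a-5p, had 2 reads in RR, 1 in Mock and 4 in CC, below the other arm in each library. The other arm of MIR1-1, miR-1-5p, had no value among the miRNAs measured.

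miR-133b, the partner of miR-206, had 2 reads in RR, 5 in Mock and 0 in CC. The level was 0.191 rpm (0.0231 to 0.690) for RR and 0.470 rpm (0.153 to 1.10) for Mock, while the 0 reads in CC have an exact upper limit of 0.343 rpm. At this depth no order of the libraries was detectable for miR-133b.

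By level, neighbours in the order were not always separate. miR-206 and miR-133a-3p had overlapping intervals in CC but not in RR or Mock. miR-133a-3p and miR-133b overlapped in RR and Mock but not in CC. miR-1-3p was apart from the rest in every library.

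Partners of a locus were far from equal in mature reads. For each read of miR-133a-3p there were 470 reads of miR-1-3p in RR (247 to 1029), 484 in Mock (235 to 1205) and 331 in CC (185 to 664), and the 3 intervals overlapped. For each read of miR-133b there were 19.0 reads of miR-206 in RR (4.91 to 163) and 54.2 in Mock (22.9 to 168), while CC had 19 reads of miR-206 against 0 of miR-133b, for which the exact lower limit of the ratio was 4.67. All 4 mature sequences have 22 bases, so length does not enter these ratios. The partners differ in sequence and GC content, and whether library preparation captured them equally was not tested. These are therefore ratios of reads, and the ratios of molecules in the cells may differ.

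The balance of the seed pair differed between libraries. miR-1-3p outnumbered miR-206 by 111-fold in RR (81.0 to 158), by 12.5-fold in Mock (11 to 14.2) and by 192-fold in CC (123 to 319). The Mock interval lay below both others, and those of RR and CC overlapped. Since both miRNAs carry the same seed, their reads summed come mostly from miR-1-3p in each library.

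By the design text, Mock over CC sets clones exposed once against untreated ones. miR-206 had 25.5 rpm in Mock and 1.76 rpm in CC, a ratio of 14.4 (9.07 to 24.4), or 3.26 as a log2 ratio after adding 1 rpm to each value. miR-1-3p had 319 rpm in Mock and 338 rpm in CC, a ratio of 0.942 (0.899 to 0.987). The log2 ratio of miR-1-3p was -0.086, beside a median of 0.28 over the 208 miRNAs averaging at least 10 rpm, and it ran to -0.60 by share of miRNA reads and -0.74 without the GC trend. miR-206 was thus higher in Mock, and miR-1-3p was lower there by an amount that depended on the scaling.

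Among the 208 miRNAs whose mean reached 10 rpm, 15.9% were 2-fold or more apart on that log2 scale between Mock and CC, in either direction, as were 14.6% of the 390 whose mean reached 1 rpm. The 2-fold threshold was passed by miR-206 and not by miR-1-3p, and the remaining 2 members fell under both filters. The ratio of miR-206 ranked 2nd from the highest of the 208 and also of the 390, behind miR-486-5p. miR-206 reached the mean of 10 rpm, at 10.3 rpm, only through Mock: its mean over RR and CC was 2.70 rpm. It was therefore bound to differ once past that filter, and the count is a description. Among 388 miRNAs whose mean over RR and CC was 1 rpm or more, a filter added after the values were seen, it again ranked 2nd, with 13.7% of the 388 at 2-fold or more.

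miR-133a-3p had 7 reads in Mock and 11 in CC, a ratio of 0.645 (0.212 to 1.82). miR-133b had 5 reads in Mock and 0 in CC. Set against the floor of 3 reads in CC, its level in Mock was 1.69-fold higher. The lower limit of the exact interval of the ratio was 0.928, below equal levels, so the floor gives no bound here. The partners of miR-206 and miR-1-3p thus gave too few reads for a difference to be seen.

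**Figure D2:**
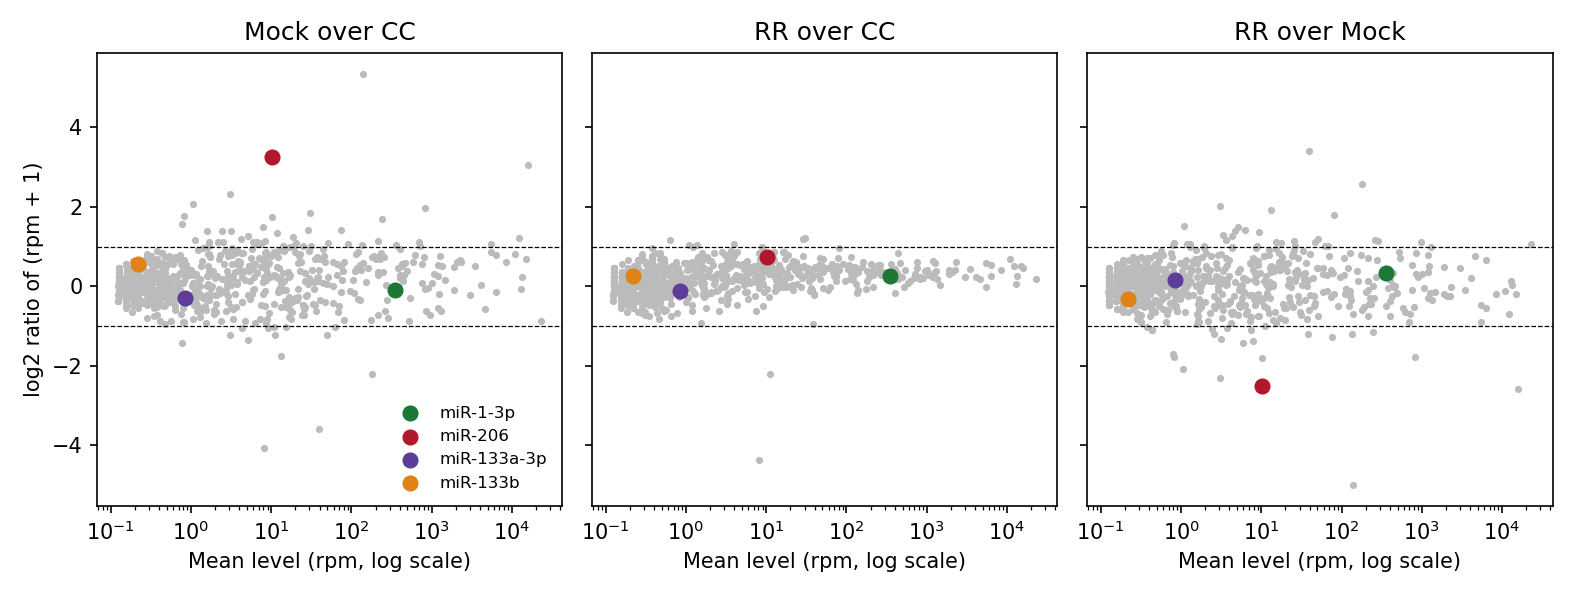
Log2 ratio of (rpm + 1) against mean level in rpm (log scale) for Mock over CC, RR over CC and RR over Mock; grey points are the miRNAs whose mean was at least 0.1 rpm, coloured points the muscle miRNAs, and dashed lines mark 2-fold. miR-206 lies at 3.26 for Mock over CC and at -2.52 for RR over Mock, and miR-1-3p stays between the dashed lines in all 3 panels.

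RR over CC sets the clones labelled radioresistant against untreated ones. miR-206 had 3.63 rpm in RR and 1.76 rpm in CC, a ratio of 2.06 (1.16 to 3.78) as deposited and 0.74 as a log2 ratio after adding 1 rpm, which is under 2-fold. miR-1-3p had 404 rpm in RR and 338 rpm in CC, a ratio of 1.19 (1.14 to 1.25) and a log2 ratio of 0.26, beside a median of 0.36 over the 208 miRNAs. That log2 ratio had the opposite sign under 3 other scalings: -0.066 by median ratios, -0.062 with the 10 most abundant miRNAs left out of the total, and -0.079 when taken as a share of miRNA reads.

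On the log2 scale with 1 rpm added, no member was 2-fold or more apart in RR over CC, where 1.44% of the 208 miRNAs and 1.79% of the 390 were. miR-206 ranked 12th from the highest of the 208 and 31st of the 390, and miR-1-3p 135th and 225th. miR-133a-3p had 9 reads in RR and 11 in CC, a ratio of 0.841 (0.308 to 2.23). miR-133b had 2 reads in RR and 0 in CC, both under the floor, and no fold is given.

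RR over Mock sets clones described as exposed many times against clones described as exposed once. It shares its libraries with the other 2 comparisons. miR-206 had 3.63 rpm in RR and 25.5 rpm in Mock, a ratio of 0.142 (0.0986 to 0.200) or 7.02-fold lower in RR (4.99 to 10.1). miR-1-3p had 404 rpm in RR and 319 rpm in Mock, a ratio of 1.27 (1.21 to 1.33) and a log2 ratio of 0.34. The 2 miRNAs of the shared seed lay on opposite sides of equal in this comparison.

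The background was 13.0% of the 208 miRNAs and 12.8% of the 390 at 2-fold or more in RR over Mock. miR-206 ranked 3rd from the lowest in both sets and passed the threshold, and miR-1-3p ranked 75th from the highest of the 208 and did not. Since miR-206 is among the 208 only through Mock, with a mean over RR and CC of 2.70 rpm, it was bound to be lower in RR there. Its rank and its passing of the threshold are therefore a description. miR-133a-3p had 9 reads in RR and 7 in Mock, a ratio of 1.31 (0.433 to 4.12), and miR-133b 2 reads in RR and 5 in Mock, a ratio of 0.406 (0.0387 to 2.48). Both intervals include equal levels and wide differences either way.

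Base composition moved with the ratios to Mock. miR-1-3p has a GC content of 27.3%, miR-206 of 45.5%, miR-133a-3p of 54.5% and miR-133b of 50%. Over the 208 miRNAs, Spearman's rho between GC content and log2 ratio was -0.55 in Mock over CC, 0.048 in RR over CC and 0.60 in RR over Mock. These are descriptions, since the miRNAs share the same libraries. The 10 miRNAs within 5 points of the GC content of miR-1-3p, itself included, had a median log2 ratio Mock over CC of 0.80. miR-1-3p stood at -0.086, with 7 of these above it and 2 below. The 86 miRNAs within 5 points of miR-206 had a median of 0.52, and miR-206 was the highest of them. These 86 were taken from the 208, which miR-206 joined only through Mock, so its place is partly set by that filter.

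After subtraction of the linear trend of level on GC content within each library, the log2 ratio of miR-1-3p was -0.74 for Mock over CC, 0.31 for RR over CC and 1.05 for RR over Mock, the last of which is past 2-fold. For miR-206 these values were 3.13, 0.75 and -2.37. The trend was removed around a GC content of 50%, so by construction miR-206, which lies near that value, could move little and miR-1-3p, far from it, could move more.

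**Figure D3:**
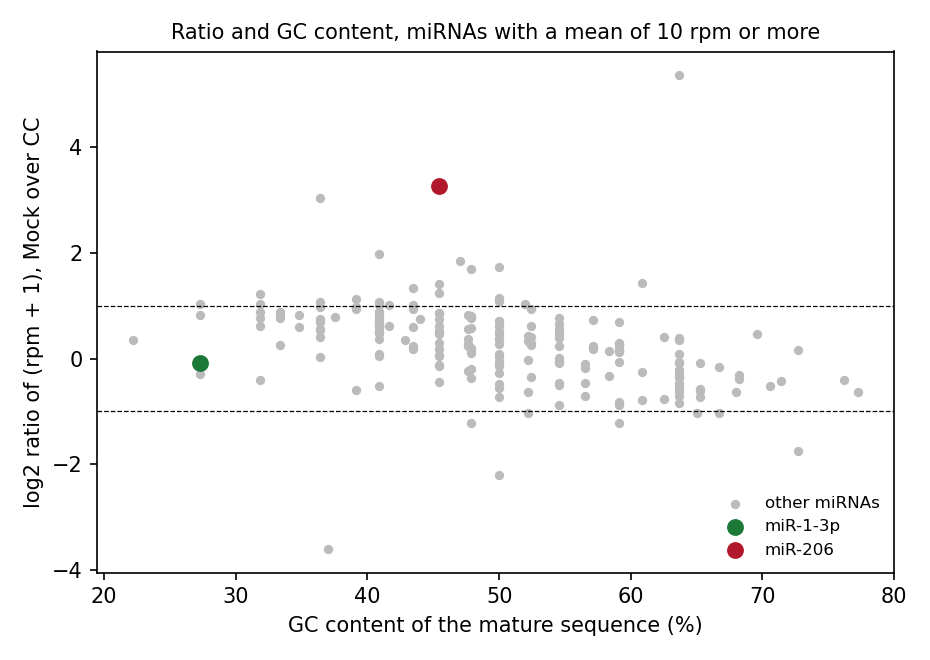
Log2 ratio of (rpm + 1), Mock over CC, against the GC content of the mature sequence in percent, for the 208 miRNAs averaging at least 10 rpm; dashed lines mark 2-fold. miR-206 lies at 3.26, the highest of the miRNAs of like GC content, and miR-1-3p at -0.086, below 7 of the 9 others within 5 points of its own. miR-206 is among the 208 only through its level in Mock, so its place is partly set by that filter.

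Beyond the members, the muscle-enriched miRNAs encoded in heart and muscle genes were near the floor, except for miR-486-5p. Values were found for 4 of the 10 miRNAs listed, and neither arm of miR-208a or miR-208b, from cardiac myosin genes, was among them. miR-499a-5p, from the myosin gene MYH7B, had 8 reads in RR, 7 in Mock and 4 in CC. miR-499b-5p had 2 reads in RR and 0 in both Mock and CC. miR-486-5p, which is made in erythroid cells as well as muscle, had 11.5 rpm in RR, 398 rpm in Mock and 8.73 rpm in CC, a ratio of 45.6 for Mock over CC (37.1 to 56.5), and miR-486-3p had 2 reads in RR, 7 in Mock and 0 in CC.

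miRNAs of the myogenic programme that many tissues also make were abundant, with 9 of 10 measured. Their summed level was 7337 rpm in RR, 8667 rpm in Mock and 5698 rpm in CC. miR-378a-3p, which represses the myogenic inhibitor MyoR in mouse cells, had 2332 rpm in RR, 2756 rpm in Mock and 1751 rpm in CC. miR-26a-5p, a repressor of EZH2, had 1926 rpm in RR, 2190 rpm in Mock and 1561 rpm in CC, and miR-24-3p 1364 rpm in RR, 1541 rpm in Mock and 906 rpm in CC. None of the 6 with a mean of 10 rpm or more was 2-fold apart in any of the 3 comparisons. Over all 208 miRNAs the share was 15.9% (Mock over CC), 1.44% (RR over CC) and 13.0% (RR over Mock). With only 6 miRNAs, no departure from these shares can be read. The median log2 ratio of the 6 was 0.61 (Mock over CC), 0.36 (RR over CC) and -0.21 (RR over Mock), beside 0.28, 0.36 and 0.065 over all 208.

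Marker lists of squamous epithelium and of other cell types were read beside miR-206. The libraries came from clones of a carcinoma line, and whether cells of any other type were present was not tested. The squamous epithelial markers had a summed level of 44137 rpm in RR, 28369 rpm in Mock and 37902 rpm in CC, with all 5 detected. The lower sum in Mock came from miR-205-5p, at 29651 rpm in RR, 14174 rpm in Mock and 25945 rpm in CC, which was 2-fold or more higher in RR than in Mock. In rpm, the other 4 were no lower in Mock than in CC. Of these, miR-141-3p, at 23.9 rpm in RR, 34.4 rpm in Mock and 16.6 rpm in CC, was past 2-fold with a log2 ratio of 1.01 for Mock over CC. By share of miRNA reads, miR-141-3p was still higher in Mock than in CC, but the others were lower there. These shares in Mock and CC were 6.01% and 7.22% for miR-200c-3p, 0.0102% and 0.0141% for miR-203a-3p, and 0.0944% and 0.110% for miR-31-5p. The erythroid markers summed to 12.4 rpm in RR, 409 rpm in Mock and 9.47 rpm in CC. Reads were found for 3 of 5 in RR, 5 of 5 in Mock and 2 of 5 in CC, and both arms of miR-144 were at 0 in RR and CC. miR-451a, an abundant miRNA of red cells, had 0.764 rpm in RR, 7.71 rpm in Mock and 0.743 rpm in CC, a ratio of 10.4 for Mock over CC (5.03 to 24.9).

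Leukocyte markers, with values for 3 of 4, summed to 1 read in RR, 21 reads in Mock and 1 read in CC. Mock thus held the most erythroid and leukocyte marker reads and the most miR-206, and their part in the miR-206 result was not tested. The mesenchymal and smooth muscle markers, with values for 3 of 5, summed to 6.49 rpm in RR, 5.64 rpm in Mock and 6.41 rpm in CC, with overlapping intervals. Within that sum the members moved differently. miR-143-3p gave most of the reads, 66 of 68 in RR, 47 of 60 in Mock and 62 of 69 in CC. miR-145-5p, its smooth muscle partner, had 2 RR reads, 1 Mock read and 5 CC reads. miR-199a-5p, a marker of fibroblast-like cells, had 0 RR reads, 12 Mock reads and 2 CC reads, a ratio of 6.08 for Mock over CC (1.35 to 55.9), so it too was highest in Mock, as miR-206 was, and its part in the miR-206 result was not tested. The endothelial pair summed to 81.9 rpm in RR, 66.9 rpm in Mock and 55.2 rpm in CC, the hepatic miR-122-5p stood at 2.96 rpm in RR, 5.45 rpm in Mock and 4.46 rpm in CC, and the neural markers, with values for 2 of 3, summed to 697 rpm in RR, 784 rpm in Mock and 567 rpm in CC.

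**Figure D4:**
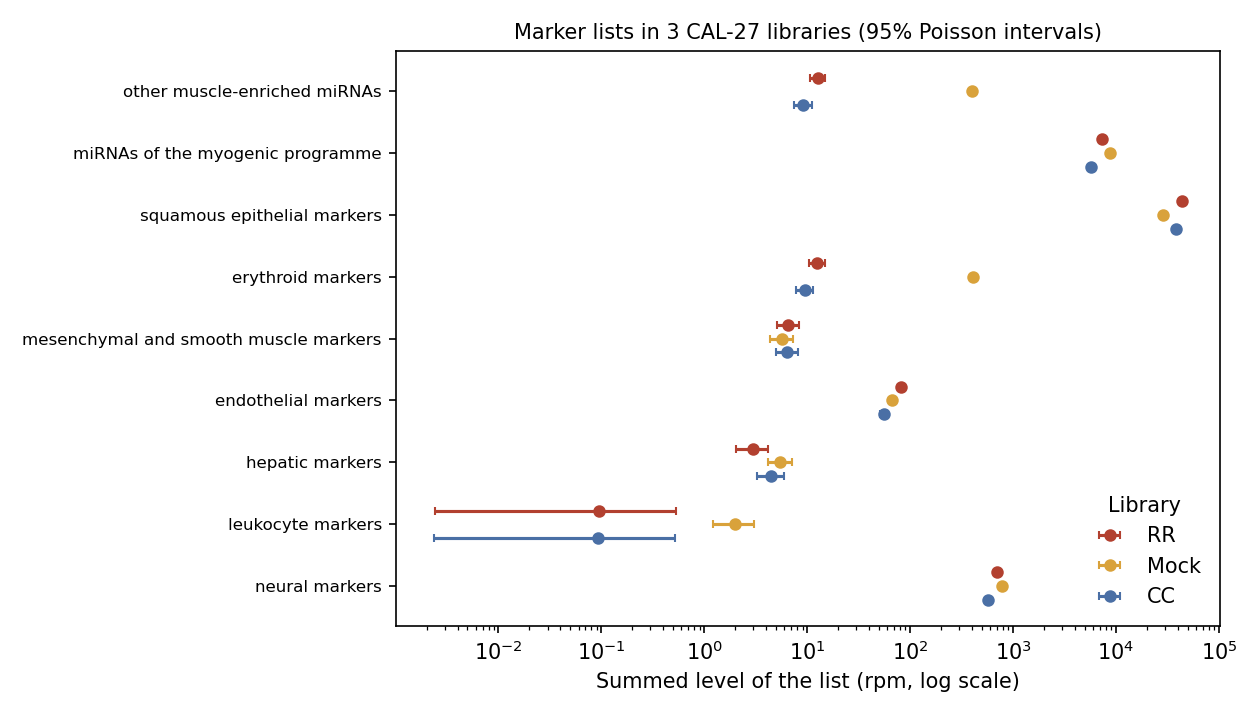
Summed level in rpm (log scale) of each list of marker miRNAs in the RR, Mock and CC libraries, with exact 95% Poisson intervals; miR-486 counts in both the muscle-enriched and the erythroid list. The muscle-enriched list, at 12.6 rpm in RR, 399 rpm in Mock and 9.10 rpm in CC, and the erythroid list, at 12.4, 409 and 9.47 rpm in the same libraries, consist mostly of miR-486-5p, and the leukocyte list is highest in Mock.

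Likeness of pattern was measured as the Euclidean distance between log2(rpm + 1) profiles, each centred over the 3 libraries, among the 390 miRNAs averaging at least 1 rpm. With only 3 libraries such a distance is coarse. miR-21-5p was nearest to miR-206, at a distance of 0.20, with 6209 rpm in RR, 36929 rpm in Mock and 4475 rpm in CC. The added 1 rpm shrinks the ratios of miR-206, at 1.76 rpm in CC, and hardly those of miR-21-5p. For miR-206, Mock over CC was 3.26 with 1 rpm added and 3.78 with 0.1 rpm, so this closeness depends partly on the pseudocount. After miR-21-5p, the order of nearness to miR-206 was as follows. Next came miR-451a at 0.70, miR-7973 at 0.85, miR-146a-5p at 0.91 and miR-320c at 1.08, all highest in Mock. miR-451a and miR-7973, like miR-206 at its 10 rpm filter, have most of their reads in Mock and reach a mean of 1 rpm only through it, so their place near miR-206 is partly set by the filter. The nearest to miR-1-3p were miR-106b-3p at 0.020, with 948 rpm in RR, 763 rpm in Mock and 799 rpm in CC, then miR-1287-5p at 0.026, miR-30e-3p at 0.050, miR-3679-5p at 0.066 and miR-93-5p at 0.066. Neither miRNA of the pair was among the 5 nearest of the other.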

How the data were processed

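Small RNA libraries were made by adapter ligation from total RNA and sequenced on an Illumina NovaSeq, per the labels' protocols. Bowtie and GRCh38 are named, with no role, in the submitters' processing notes, and no source used here gives the trimming, the miRNA reference or the handling of reads with several matches. The deposited values, which the authors call TPM, behave as RPM: every library has 1 smallest step for all miRNAs, whatever their length, and 100% of values came out as whole reads to within 0.01 of one.

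Columns were matched to libraries by the treatment tag and groups follow the titles. No count model was fitted, as each group has 1 library. Log2 ratios add 1 rpm. Named miRNAs are the members, other arms, other muscle-enriched miRNAs, seed and near-identical partners, the 5 nearest patterns and up to 3 per marker list by level. miR-144-5p and miR-141-3p were named after their values were seen. Members and lists were chosen with earlier results of these data known. The code was tried on simulated reads. Sequences came from RefSeq and overlaps from GENCODE 29. The work used scipy 1.17.1, pandas 2.3.3 and numpy 2.4.6 under Python 3.11.15, with figures from matplotlib 3.10.9.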

Additional observations from a re-analysis of the deposited data

How the results depend on the processing

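Pseudocounts of 0.1 and 10 rpm, 3 other scalings and removal of the GC trend were tried on each ratio, and other filters and thresholds on each count. The log2 ratio of miR-206 ran from 1.59 to 3.78 (Mock over CC) and from -2.78 to -1.38 (RR over Mock), past 2-fold under all 6 alternatives, with 1.59 and -1.38 at a pseudocount of 10 rpm. In RR over CC it ran from 0.21 to 1.00, short of 2-fold under all 6. The highest, 0.99997 at a pseudocount of 0.1 rpm, was only just short. The deposited ratio, with no pseudocount, was 2.06 (1.16 to 3.78), so the call depends on the pseudocount. For miR-1-3p, Mock over CC was -0.32 by median ratios, -0.43 without the 10 most abundant miRNAs, -0.60 by share of miRNA reads and -0.74 without the GC trend. RR over CC changed sign, at -0.066, -0.062 and -0.079 under those 3 scalings, which put the median of all 208 miRNAs at 0.039, 0.043 and 0.026 in place of 0.36. RR over Mock was 0.25 by median ratios, 0.52 by share and 1.05 without the GC trend. The cause was not tested.

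The number of members 2-fold apart was 0 in Mock over CC and in RR over Mock at a mean of 100 rpm or more, a filter miR-206 does not pass. It was 2 in RR over Mock without the GC trend and 1 in RR over CC at 1.5-fold. Over all miRNAs the 33 of Mock over CC, 3 of RR over CC and 27 of RR over Mock became 16, 1 and 16 with a pseudocount of 10 rpm, 57, 7 and 50 at a mean of 1 rpm, 12, 0 and 11 at 100 rpm, and 60, 8 and 57 with no filter. They became 53, 7 and 50 with the filter on RR and CC alone (chosen after seeing the data), 96, 30 and 76 at 1.5-fold and 5, 1 and 5 at 4-fold. Without the GC trend, Mock over CC gave 21 and RR over Mock 14. No paired analysis was possible because each group has 1 library, and no library can be left out for the same reason. Depth limits miR-133a-3p and miR-133b, with 27 and 7 reads over the 3 libraries.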
